A study of Mus musculus with 23 samples.

Results

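To examine what urolithin A (UA) added to an alcohol diet did to the hippocampal transcriptome, the FPKM of 7 EtOH-UA mice were compared with those of 7 EtOH mice, which make up 14 of the 23 mice in the table. The 14 mice were chosen by the group in their column names, and the control mice were not used. All were male C57BL/6J mice with no engineered allele, acquired at 6 weeks of age. EtOH mice received an AIN93M liquid diet containing 4% ethanol for 16 weeks, with daily gavage of the vehicle, CMC-Na at 0.05%. EtOH-UA mice received the same ethanol diet and were given UA by gavage at 200 mg/kg/day over the same period. Both groups therefore carried the alcohol exposure, and the comparison asks what UA changed on top of it. A week of behavioral tests preceded tissue collection. FPKM count sequenced fragments relative to transcript length and library size. Each gene was compared between mice, and the values were not scaled further between libraries except in alternatives given below. Of 19733 genes, 12928 had a mean of at least 1 FPKM over the 14 mice and were tested.

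UA is produced by gut bacteria from ellagitannins of pomegranate, berries and nuts. It is best known for inducing mitophagy, the removal of damaged mitochondria by autophagy, and has also been linked to the aryl hydrocarbon receptor and to the antioxidant regulator NRF2. Chronic alcohol exposure is known to affect synaptic genes, microglia and cholesterol metabolism in the brain. The hippocampus holds pyramidal and granule neurons with many glutamate synapses, and it forms memory.

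No gene passed the threshold. With limma on log2(FPKM + 0.1), 0 of 12928 genes (0%) reached an adjusted p under 0.05 (lowest value 0.926). Before adjustment, 202 genes with p under 0.05 were higher in EtOH-UA mice (1.56% of the genes tested) and 108 were lower (0.835%). Together they numbered 310, where 5% of the genes tested would be 646.4. Only 11 genes differed by 1 or more on the log2 scale, in either direction. Under upper-quartile scaling 44.7% of the genes at an unadjusted p under 0.05 were higher, against 65.2% without it.

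With each mouse taken as independent, the comparison was precise for most genes. The methods give 4 mice per cage, and the labels do not name the cage of a mouse. Variation between cages was therefore not tested, and the intervals below do not account for it. The 95% confidence interval of the log2 fold change had a median half-width of 0.19, which is a fold of 1.14. The whole interval lay within 0.5 on either side of no change, a fold of 1.41, for 11709 genes (90.6%), and within 1 for 12784 genes (98.9%). Intervals were widest for genes at 1 to 5 FPKM, with a median half-width of 0.26, and narrowest at 20 to 100 FPKM, with 0.16.

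**Figure D1:**
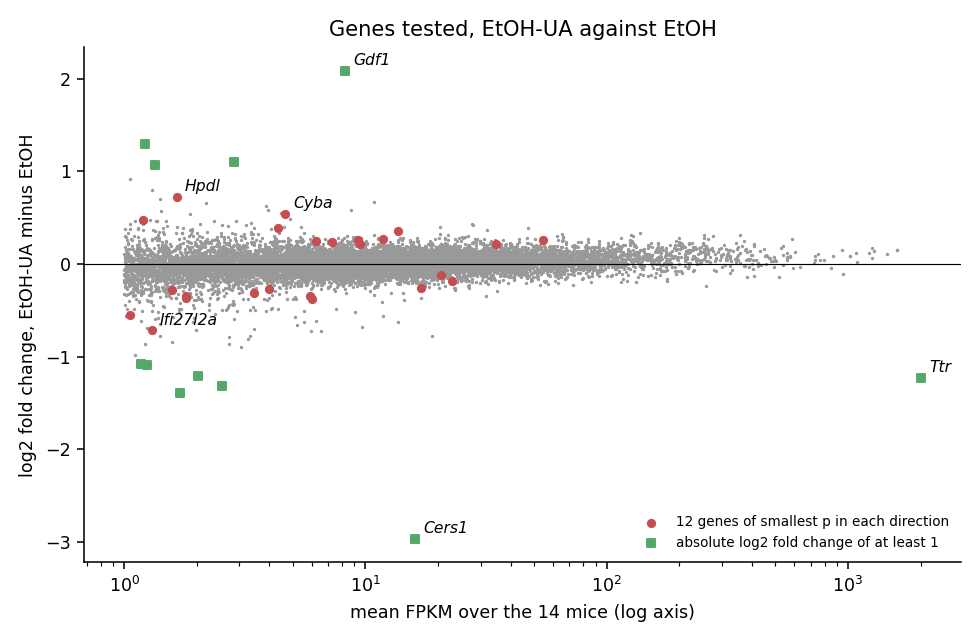
Each point is 1 of the 12928 genes tested, with its mean FPKM over the 14 mice on a log axis and its log2 fold change (EtOH-UA minus EtOH) on the vertical axis. Most points lie close to 0, the 24 genes with the smallest p-values (red) are not the ones farthest from it, and Cers1 (-2.97), Gdf1 (2.09) and Ttr (-1.23) stand among the 11 genes that differed by 1 or more (green).

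The libraries did not vary alike. The FPKM of a mouse summed to between 327896 and 366930 in the EtOH group and to between 333801 and 404609 in the EtOH-UA group, around similar medians of 334952 and 336949. In the EtOH-UA group 2 mice, with sums of 404609 and 379518, stood above the other 5, of which the highest was 338434. The first principal component took 35.0% of the variance, and these 2 mice had its highest scores, 42.7 and 24.6. The EtOH mouse with the highest sum came next, at 19.5. The median SD of log2(FPKM + 0.1) over genes was 0.14 in EtOH mice and 0.19 in EtOH-UA mice, and 0.10 among the other 5 EtOH-UA mice. Log2 fold changes of named genes that moved by over 1.5 times without these 2 mice are also given without them, a choice made after the values were seen. Without them 0 genes had an adjusted p under 0.05 by limma (smallest 0.999), 192 genes were higher and 167 lower at an unadjusted p under 0.05.

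Hpdl, which encodes a mitochondrial enzyme of coenzyme Q synthesis, had the smallest p-value. Hpdl (chr4:116819907-116821508, GRCm38) was at 0.97 to 1.55 FPKM in EtOH mice (median 1.16) and at 1.34 to 3.15 in EtOH-UA mice (median 2.02). Every EtOH-UA mouse was above the EtOH median, although the lowest of them overlapped the EtOH range. The log2 fold change was 0.72 ± 0.17 (SE, n = 7 per group; 95% interval 0.37 to 1.08), with a two-sided exact permutation p of 0.00233 and an adjusted limma p of 0.926. Without the 2 mice the log2 fold change was 0.64.

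Cyba encodes p22phox, the membrane subunit of NADPH oxidases that produce superoxide. Cyba (chr8:122424771-122432940) was at 2.81 to 5.21 FPKM in EtOH mice (median 3.36) and at 4.78 to 6.07 in EtOH-UA mice (median 5.36). The EtOH values were spread over a wide range, and the ranges of the groups overlapped. Its log2 fold change was 0.54 ± 0.13 (SE, n = 7 per group), with an exact permutation p of 0.00408, and 0.49 without the 2 mice.

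In 2 genes every EtOH-UA mouse was above every EtOH mouse (0.0155% of the genes tested), and in 1 gene every EtOH-UA mouse was below (0.00774%). Mterf2 (chr10:85119433-85128027), of the mitochondrial transcription termination factor family, was at 7.71 to 9.27 FPKM in EtOH mice (median 8.92) and at 9.31 to 11.3 in EtOH-UA mice (median 9.8). The gap between the groups was narrow, and the log2 fold change was 0.21 ± 0.06 (SE, n = 7 per group). Fam118b (chr9:35216965-35267875) was at 7.77 to 8.95 FPKM in EtOH mice (median 8.46) and at 9.0 to 13.37 in EtOH-UA mice (median 9.42). The highest Fam118b value belonged to the mouse with the highest summed FPKM, and the log2 fold change of 0.26 was 0.16 without the 2 mice. Mtmr3 (chr11:4480867-4594863), a phosphatase of phosphoinositides, was at 20.81 to 22.16 FPKM in EtOH mice (median 21.28) and at 18.29 to 20.7 in EtOH-UA mice (median 20.06). It differed by -0.12 on the log2 scale, and by -0.09 without the 2 mice. Each of these 3 genes had an exact permutation p of 0.000583, the smallest that 3432 assignments of 7 against 7 mice allow. Groups that do not overlap always give this value, so it adds nothing to the absence of overlap. It is also the share of all assignments that separate the 2 groups fully. These 3 genes are a smaller share of the 12928 genes tested, so their number is no more than random assignment would give.

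Other genes leading the higher side had small and even differences. Tm7sf2, a sterol reductase of cholesterol synthesis, was at 6.14 to 7.71 FPKM in EtOH mice (median 6.56) and at 7.26 to 8.31 in EtOH-UA mice (median 7.96). The difference was 0.24 on the log2 scale, and 0.23 without the 2 mice. Gabrd, the delta subunit of extrasynaptic GABA-A receptors of granule cells, was at 9.53 to 11.96 FPKM in EtOH mice (median 10.97) and at 11.29 to 15.81 in EtOH-UA mice (median 12.37). Adgrl4, an adhesion receptor of endothelial cells, had medians of 5.52 and 6.69 FPKM and a log2 fold change of 0.25. Coa6, an assembly factor of cytochrome c oxidase, had medians of 11.3 and 13.79 FPKM, and its log2 fold change of 0.36 was 0.21 without the 2 mice. Sdc4, a heparan sulfate proteoglycan of the cell surface, had a log2 fold change of 0.21. A log2 fold change of 0.47 was found for Marchf11, a membrane ubiquitin ligase, 0.39 for 1700088E04Rik and 0.25 for Gm14295. In each of these 8 genes all 7 EtOH-UA mice lay above the EtOH median, and each had an adjusted limma p of 0.926. The genes were ranked by these values, so their direction in each mouse is a description.

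Kcnq5, a subunit of the M-current potassium channel that limits repetitive firing, led the lower side. Kcnq5 (chr1:21398399-21962650) was at 15.67 to 20.97 FPKM in EtOH mice (median 18.3) and at 14.58 to 17.2 in EtOH-UA mice (median 14.87). All 7 EtOH-UA mice were below the EtOH median, and the ranges overlapped. The log2 fold change was -0.26 ± 0.06 (SE, n = 7 per group), the exact permutation p 0.00291, and the value without the 2 mice -0.24. Ifi27l2a, an interferon-induced gene, was at 1.08 to 1.92 FPKM in EtOH mice (median 1.67) and at 0.43 to 1.6 in EtOH-UA mice (median 0.88). Its log2 fold change was -0.72, the farthest from 0 among the 12 leading genes on this side, with an exact permutation p of 0.00874. Slit2, a secreted guidance cue for axons, was at 4.95 to 8.03 FPKM in EtOH mice (median 6.89) and at 3.82 to 6.24 in EtOH-UA mice (median 5.08), which is -0.38 on the log2 scale.

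The other leading genes on the lower side were of diverse kinds. Eif2ak2, the kinase PKR that responds to double-stranded RNA, had medians of 3.72 FPKM in EtOH and 3.14 in EtOH-UA mice (log2 fold change -0.31). Xylt1, which starts glycosaminoglycan chains, had medians of 6.6 and 5.08 FPKM (log2 fold change -0.34, and -0.23 without the 2 mice). Slc7a8, a transporter of neutral amino acids, had medians of 24.07 and 21.45 FPKM (log2 fold change -0.18, and -0.11 without the 2 mice). The remaining log2 fold changes were those of Epb41l4a (-0.37), the synaptotagmin Syt6 (-0.35), Itgbl1 (-0.27), the chemokine-like factor Cklf (-0.28) and Gm7361 (-0.55). Each had an adjusted limma p of 0.926.

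**Figure D2:**
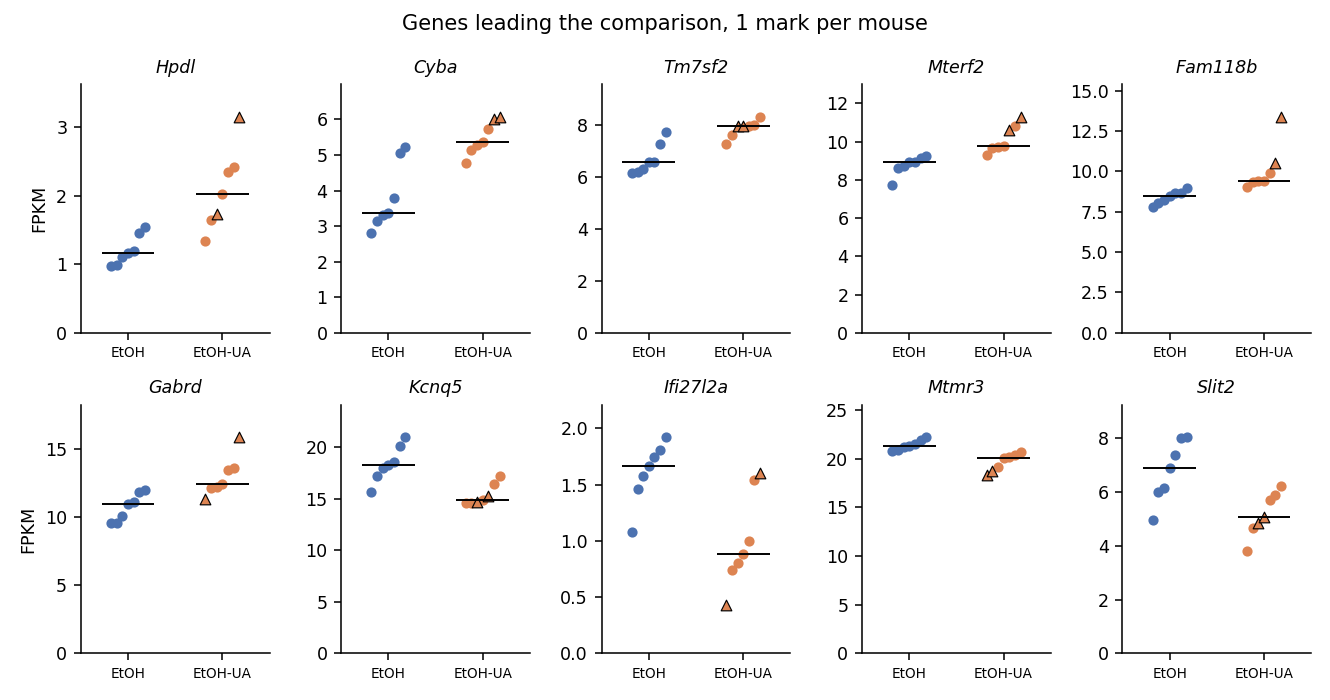
FPKM of 10 leading genes, 1 mark per mouse and 7 mice per group, with the median as a line and the 2 EtOH-UA mice with the highest summed FPKM as triangles; each vertical axis starts at 0. The groups do not overlap in Mterf2, Fam118b and Mtmr3, and they do in the other 7 genes shown.

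Genes with the widest difference in mean also spread widely between mice. Cers1 encodes a ceramide synthase abundant in neurons, and Gdf1 a growth factor of the TGF-beta family. RefSeq places them on the same locus, Cers1 at chr8:70315775-70331588 and Gdf1 at chr8:70315775-70331592 (GRCm38, plus strand), with 1 common start and a further Gdf1 start downstream. The 250 bases before these starts, from RefSeq GRCm38.p6, are shown because 1 window lies before the common start of both genes. Capitals mark GCGTG, the core of the element bound by the aryl hydrocarbon receptor, on either strand (CACGC is its reverse complement), and bases run 5′ to 3′.
Cers1 and Gdf1, chr8:70315525-70315774, plus strand: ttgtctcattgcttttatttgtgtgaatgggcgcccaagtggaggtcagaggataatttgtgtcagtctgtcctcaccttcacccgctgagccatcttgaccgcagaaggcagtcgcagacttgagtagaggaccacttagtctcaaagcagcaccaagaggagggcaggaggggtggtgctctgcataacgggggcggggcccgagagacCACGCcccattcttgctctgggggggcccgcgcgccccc
Gdf1, second start, chr8:70329515-70329764, plus strand: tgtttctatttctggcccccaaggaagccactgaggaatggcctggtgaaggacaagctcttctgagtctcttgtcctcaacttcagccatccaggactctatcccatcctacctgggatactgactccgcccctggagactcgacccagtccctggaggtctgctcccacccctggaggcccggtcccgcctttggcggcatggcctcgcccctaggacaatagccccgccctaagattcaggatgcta

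In EtOH mice Cers1 was at 12.76 to 25.67 FPKM (median 21.23) and Gdf1 at 0 to 11.77 (median 1.08). In EtOH-UA mice Cers1 was at 0 to 25.12 FPKM (median 11.34) and Gdf1 at 0.01 to 26.76 (median 11.25). In 2 EtOH-UA mice Cers1 was listed at 0 while Gdf1 was at 23.86 and 25.58, and in another Cers1 was at 0.45 and Gdf1 at 26.76. Where one gene was high the other was low. The log2 fold change of Cers1 was -2.97 ± 1.24 (SE, n = 7 per group), with an exact permutation p of 0.0763, and that of Gdf1 was 2.09 ± 1.36, with an exact permutation p of 0.184. These became -1.58 and 1.10 without the 2 mice. Their sum was at 21.01 to 26.7 FPKM in EtOH mice (median 24.53) and at 22.59 to 27.21 in EtOH-UA mice (median 23.94). The sum differed by 0.01 on the log2 scale (exact permutation p = 0.825). Since the transcripts share a locus, reads assigned to one or the other cannot be told apart here.

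**Figure D3:**
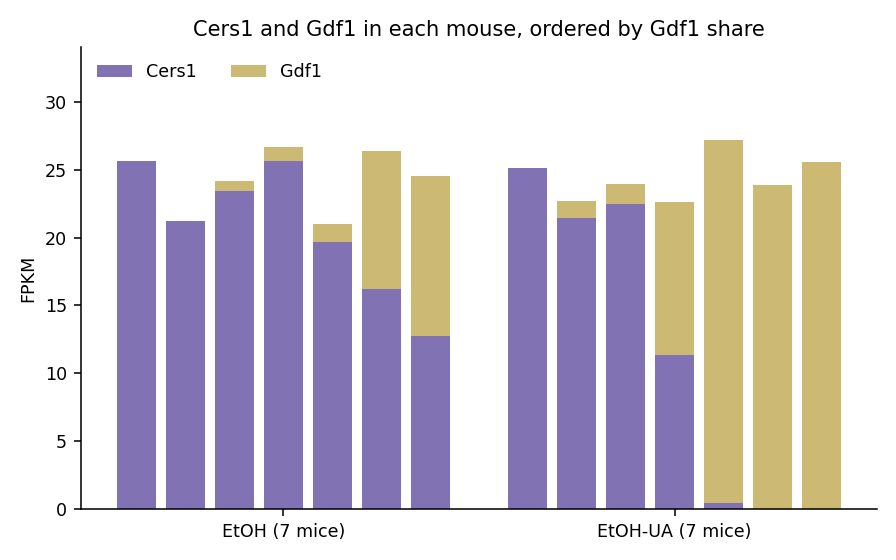
FPKM of Cers1 (purple) and Gdf1 (yellow) stacked for each of the 7 EtOH and 7 EtOH-UA mice, ordered within each group by the share of Gdf1. The height of the stack, 21.01 to 27.21 FPKM, varies little, while the Gdf1 share runs from 0% to 48.0% in EtOH mice and from 0.0398% to 100% in EtOH-UA mice.

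The other 9 genes that differed by 1 or more on the log2 scale also overlapped between the groups. Pet117 had a log2 fold change of -1.08. It overlaps Kat14 in RefSeq, and the sum of both genes was at 9.37 to 11.23 FPKM in EtOH mice and at 9.26 to 11.38 in EtOH-UA mice (log2 fold change -0.05, exact permutation p = 0.338). Defb11 (-1.39), Zfp973 (-1.31), Lamtor3-ps (1.30), H2ac19 (-1.21), Gm2506 (1.10), Fam205a3 (-1.09) and Gm3411 (1.07) each had medians under 4 FPKM in both groups, and each was listed at 0 in 1 to 4 of the 14 mice. The log2 fold changes of H2ac19 and Fam205a3 were -2.23 and -0.61 without the 2 mice. Leaving out 1 mouse brought those of Pet117 to -0.60, Zfp973 to -0.79, H2ac19 to -0.74, Gm2506 to 0.47 and Gm3411 to 0.56. Several belong to families of similar copies or are pseudogenes, between which reads can be divided.

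Ttr, the transthyretin gene and the main transcript of the choroid plexus, was at 58.36 to 5628 FPKM in EtOH mice (median 1249) and at 11.34 to 7705 in EtOH-UA mice (median 1811). The log2 fold change was -1.23 ± 1.40 (SE, n = 7 per group), although the EtOH-UA median was the higher one. It was -0.35 without 1 of the EtOH-UA mice and -1.92 without 1 of the EtOH mice. All 14 choroid plexus markers had a log2 fold change below 0, with a median of -0.45, beside 0.01 for all genes tested. The list's level in a mouse, the mean log2 difference of its members from their 14-mouse means, ran from -1.93 to 2.54 in EtOH mice and from -3.33 to 2.35 in EtOH-UA mice. The ranges overlapped, with 2 EtOH-UA mice below every EtOH mouse, and without 1 of the EtOH-UA mice the list's median was 0.10. With the list's level as a covariate 0 genes reached an adjusted p under 0.05 by limma. All 15 markers of hippocampal pyramidal and granule neurons passed the filter, 11 of them higher, with log2 fold changes from -0.89 to 0.37 and a median of 0.05. Nrgn, a calmodulin-binding protein of pyramidal and granule neurons, was at 440.2 to 721.4 FPKM in EtOH mice and at 501.9 to 674.2 in EtOH-UA mice. In bulk tissue, fewer cells of a type and less RNA per cell cannot be told apart.

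Mitophagy and mitochondrial biogenesis genes showed no call, as was true of all genes tested. None of the 23 mitophagy genes tested had an unadjusted limma p under 0.05, beside 2.4% of all genes tested. Of the 23 genes 14 were higher (53.8% of all genes were higher). Their median log2 fold change was 0.06, or -0.01 both without the 2 mice and after quantile normalization. Sqstm1, the autophagy receptor p62, was at 166.2 to 222.3 FPKM in EtOH mice (median 184.3) and at 177.2 to 246.5 in EtOH-UA mice (median 185.2). Tomm7, a translocase subunit that stabilizes PINK1 on mitochondria, had medians of 22.78 and 23.64 FPKM and a log2 fold change of 0.29, or 0.07 without the 2 mice. Of the 35 autophagy and lysosome genes 24 were higher, with a median log2 fold change of 0.05 (-0.01 without the 2 mice), and Gabarapl1, an ATG8 homolog, had medians of 312.8 and 315.3 FPKM. Biogenesis genes had a median log2 fold change of 0.01 over 17 genes, of which 10 were higher. Ppargc1a, the coactivator PGC-1alpha that drives mitochondrial biogenesis, was at 7.76 to 12.87 FPKM in EtOH mice (median 10.27) and at 6.18 to 10.1 in EtOH-UA mice (median 9.05). All 7 EtOH-UA mice were below the EtOH median of Ppargc1a, and the log2 fold change was -0.22 (95% interval -0.48 to 0.03; exact permutation p = 0.113). The value was -0.11 without the 2 mice, and -0.14 without 1 of them alone. Sirt3, the mitochondrial deacetylase, had a log2 fold change of 0.10, and -0.04 without the 2 mice.

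Respiratory chain, ribosome and proteasome genes were higher without exception over all 14 mice and mostly lower without the 2 mice. All 36 nuclear complex I genes, 37 genes of complexes II to V, 38 cytosolic ribosomal proteins and 29 proteasome subunits had a log2 fold change above 0. Their median log2 fold changes were 0.18, 0.13, 0.19 and 0.13. Among these 140 genes 1 had an unadjusted limma p under 0.05, Rps6, beside 2.4% of all genes tested. The complex I level was 0.66 and 0.55 in the 2 EtOH-UA mice with the highest summed FPKM and lay between -0.19 and -0.02 in the other 5. In EtOH mice it ran from -0.27 to 0.29, so the other 5 EtOH-UA mice lay inside the EtOH range and the 2 mice lay above it. Without the 2 mice, 6 of the 36 complex I genes, 4 of the 37, 10 of the 38 and 8 of the 29 were higher, and all 4 medians were below 0, between -0.05 and -0.03. Ndufa1, a complex I subunit, had medians of 56.1 FPKM in EtOH and 64.27 in EtOH-UA mice, with the highest value at 114.9, and its log2 fold change of 0.32 was 0.08 without the 2 mice. The log2 fold changes of Ndufb9 (0.16), the ATP synthase subunit Atp5b (0.08) and the ribosomal protein Rpl3 (0.14) were below 0 without them. Psmb5, a catalytic proteasome subunit, had a log2 fold change of 0.27, or 0.05 without them, and Rps28 of 0.31, or 0.08. Rps6 was at 6.3 to 10.57 FPKM in EtOH mice (median 7.76) and at 8.22 to 11.86 in EtOH-UA mice (median 9.45), with a log2 fold change of 0.29, or 0.23 without the 2 mice. Ribosomal protein genes have many processed copies in the genome, so their values are uncertain.

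Transcript length moved with the same 2 mice. Genes were divided into quintiles by annotated transcript length, and the median log2 fold change went from 0.04 in the shortest quintile (67.0% higher) to -0.04 in the longest (30.6% higher). In the mouse with the highest summed FPKM the shortest quintile deviated by 0.21 and the longest by -0.17 from the 14-mouse means, and in the second mouse by 0.12 and -0.13. The other 5 EtOH-UA mice lay between -0.05 and -0.02 in the shortest quintile and between 0.02 and 0.05 in the longest, inside the range of the EtOH mice. Without the 2 mice the medians were -0.01 and 0.01. The part of transcript length in the differences of the gene lists was not tested.

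**Figure D4:**
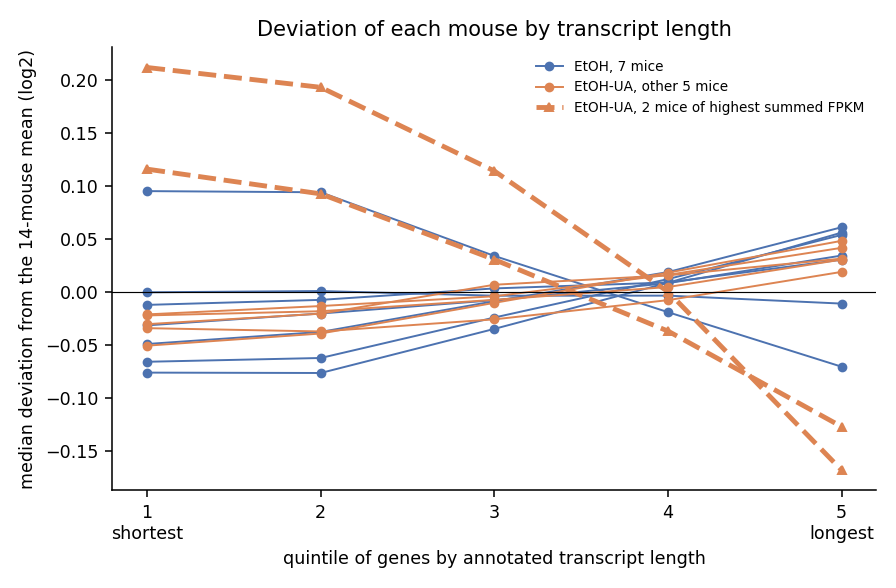
Median deviation of each of the 14 mice from the gene's mean, on the log2 scale, for quintiles of genes by annotated transcript length, with EtOH mice in blue and EtOH-UA mice in orange. The 2 EtOH-UA mice with the highest summed FPKM (dashed, triangles) run from 0.21 and 0.12 in the shortest quintile to -0.17 and -0.13 in the longest, and 1 EtOH mouse follows a like but shallower course.

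Synaptic genes were mostly lower over all 14 mice. Of 41 glutamate synapse genes 33 were lower, with a median log2 fold change of -0.07. Without the 2 mice 24 of the 41 were higher and the median was 0.01. Camk2a, the main postsynaptic kinase, was at 777.7 to 993.1 FPKM in EtOH mice (median 842.0) and at 701.7 to 987.1 in EtOH-UA mice (median 835.8), with a log2 fold change of -0.04, and of 0.02 without the 2 mice. Dlg3, the scaffold SAP102, was at 48.74 to 53.87 FPKM in EtOH mice (median 51.28) and at 51.42 to 56.57 in EtOH-UA mice (median 55.41). All 7 EtOH-UA mice were above the EtOH median of Dlg3, with a log2 fold change of 0.09 (exact permutation p = 0.0134) and 0.11 without the 2 mice. Grm3, a metabotropic glutamate receptor, had a log2 fold change of -0.19, and of -0.13 without the 2 mice. Among 24 presynaptic genes 18 were lower, and 17 of 24 without the 2 mice. Rims1, which organizes the release site, had medians of 36.82 and 32.96 FPKM and a log2 fold change of -0.17 (exact permutation p = 0.035), or -0.10 without the 2 mice. Pclo, its large partner at the active zone, had a log2 fold change of -0.25, or -0.08 without the 2 mice. That of Snap25, of the vesicle fusion complex, was 0.02, and below 0 without the 2 mice.

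The study followed a cannabinoid receptor, dopamine receptor and RAP1 axis, and its genes were read individually. For protein, the study reported that UA raised DRD2 and CB1R and lowered RAP1. The values here are RNA levels and are no test of those protein results. These genes were chosen by the study, in part on these groups, and are not independent evidence of a direction. Drd2, the dopamine D2 receptor, was under the filter, at 0.48 to 0.67 FPKM in EtOH mice (median 0.58) and at 0.53 to 0.83 in EtOH-UA mice (median 0.68). Lpar3, a lysophosphatidic acid receptor for which the study lists qPCR primers (medians 0.15 and 0.05 FPKM), was also under it. Neither gene was tested at this filter. Both passed an alternative filter at a mean of 0.1 FPKM, with means of 0.64 FPKM for Drd2 and 0.11 for Lpar3. There the smallest adjusted limma p of any gene was 0.937. Cnr1, the cannabinoid receptor CB1, was at 39.14 to 52.68 FPKM in EtOH mice (median 45.61) and at 30.12 to 52.64 in EtOH-UA mice (median 42.31). The Cnr1 log2 fold change was -0.10 (95% interval -0.33 to 0.13; exact permutation p = 0.429), and -0.06 without the 2 mice. Rap1a and Rap1b, the small GTPases that control adhesion and synaptic signalling, both had a log2 fold change of 0.13. Rap1b was at 30.63 to 37.44 FPKM in EtOH mice (median 33.97) and at 33.23 to 42.72 in EtOH-UA mice (median 36.74), with an exact permutation p of 0.0431, an adjusted limma p of 0.926 and a log2 fold change of 0.08 without the 2 mice. Rap1a had medians of 23.87 and 25.79 FPKM and an exact permutation p of 0.102, and its log2 fold change was 0.06 without the 2 mice.

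The wider pathway lists also held no gene past the adjusted threshold, because no gene tested passed it. Of 23 genes of RAP1 and its regulators 8 were higher and 15 lower (median log2 fold change -0.04), and 16 were higher without the 2 mice. Rap1gap2, a GTPase activator that switches RAP1 off, had medians of 34.46 FPKM in EtOH and 30.02 in EtOH-UA mice, with -0.14 on the log2 scale and an exact permutation p of 0.0548. Of 16 endocannabinoid genes 13 were higher, with a median log2 fold change of 0.08, or 0.02 without the 2 mice. Abhd6, a lipase that degrades 2-arachidonoylglycerol, was at 23.27 to 26.16 FPKM in EtOH mice (median 23.78) and at 24.9 to 29.03 in EtOH-UA mice (median 25.74). All 7 EtOH-UA mice were above the EtOH median of Abhd6 (log2 fold change 0.12, exact permutation p = 0.0117, and 0.07 without the 2 mice). Dopamine and cAMP genes had 17 of 33 higher and a median log2 fold change of 0.00. Pde1a, a phosphodiesterase, had medians of 57.91 and 50.56 FPKM (log2 fold change -0.18).

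Synaptic and glial genes that the study measured by qPCR were also compared. Dlg4, which encodes PSD-95, was at 180.3 to 233.5 FPKM in EtOH mice (median 200.8) and at 167.4 to 221.1 in EtOH-UA mice (median 199.4), with a log2 fold change of 0.00 to 2 decimals (95% interval -0.16 to 0.16), and of 0.03 without the 2 mice. The intervals of Fxr1 (log2 fold change 0.02) and Fxr2 (0.06), RNA-binding proteins related to FMRP, and of Tdp2 (0.09), a DNA repair phosphodiesterase, included 0. These log2 fold changes were -0.015, -0.022 and 0.054 without the 2 mice. Log2 fold changes were -0.16 for Grin2b, an NMDA receptor subunit, and -0.17 for Gria2, an AMPA receptor subunit, and without the 2 mice 0.05 and -0.02. Aif1, the microglial marker IBA1, was at 2.74 to 5.96 FPKM in EtOH mice (median 4.44) and at 3.74 to 7.99 in EtOH-UA mice (median 4.17). The log2 fold change of Aif1 was 0.12, and -0.10 without the 2 mice. That of Fyb, an adapter of immune cells, was 0.18, and 0.11 without 1 of the other 5 EtOH-UA mice. Bdnf was at 8.84 to 14.33 FPKM in EtOH mice (median 10) and at 10.49 to 16.75 in EtOH-UA mice (median 11.72), with all 7 EtOH-UA mice above the EtOH median. The difference was 0.22 on the log2 scale (95% interval -0.03 to 0.46; exact permutation p = 0.108), 0.16 without the 2 mice and 0.14 without 1 of them alone. Il1b had a median of 0.13 FPKM in both groups and Tnf was listed at 0 in 5 mice of each group, so neither cytokine was tested.

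Glial and immune lists held no gene past the adjusted threshold, which no gene tested passed. Of 22 microglial and cytokine genes 16 were higher (median log2 fold change 0.05), and 8 without the 2 mice. Il18, an interleukin of the inflammasome pathway, was at 11.57 to 15.76 FPKM in EtOH mice (median 14.87) and at 14.22 to 19.56 in EtOH-UA mice (median 17.07). It differed by 0.23 on the log2 scale with an exact permutation p of 0.0198, and by 0.15 without the 2 mice. Interferon and MHC class I genes had 13 of 19 higher and 7 of 19 without the 2 mice, with medians of 0.01 and -0.06. Oasl2, an interferon-induced gene, had a log2 fold change of -0.26, or -0.14 without the 2 mice and -0.16 without 1 of them alone. Of 22 astrocyte genes 16 were higher (median log2 fold change 0.07), and 12 without the 2 mice (median 0.03). Gjb6, an astrocytic connexin, had a log2 fold change of 0.25, and Lcn2, lipocalin 2 of reactive astrocytes, had an EtOH median of 0.49 FPKM and an EtOH-UA median of 1.53. The Lcn2 interval was wide (log2 fold change 0.91, 95% interval -0.21 to 2.04; exact permutation p = 0.145). Of 22 myelin genes 18 were lower, with a median log2 fold change of -0.10, and 12 were higher without the 2 mice. Mbp, myelin basic protein, had medians of 1008 and 837.0 FPKM and a log2 fold change of -0.11, or -0.04 without the 2 mice.

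Cholesterol synthesis genes were mostly lower with and without the 2 mice, by small amounts. Of 24 genes of cholesterol synthesis and its control 19 were lower and 5 higher (53.8% of all genes were higher), with a median log2 fold change of -0.08. Without the 2 mice 22 of 24 were lower and the median was -0.11. The list's level ran from -0.02 to 0.09 in EtOH mice and from -0.14 to 0.09 in EtOH-UA mice, so the groups overlapped. Srebf2, the transcription factor that activates these genes, was at 34.48 to 40.3 FPKM in EtOH mice (median 37.31) and at 34.44 to 37.59 in EtOH-UA mice (median 35.52), a difference of -0.08 on the log2 scale (exact permutation p = 0.0256). Hmgcs1, an early enzyme of the pathway, had a log2 fold change of -0.08, and of -0.13 without the 2 mice. No gene of the list had an unadjusted limma p under 0.05, beside 2.4% of all genes tested. Tm7sf2, which is not on the list, was higher.

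**Figure D5:**
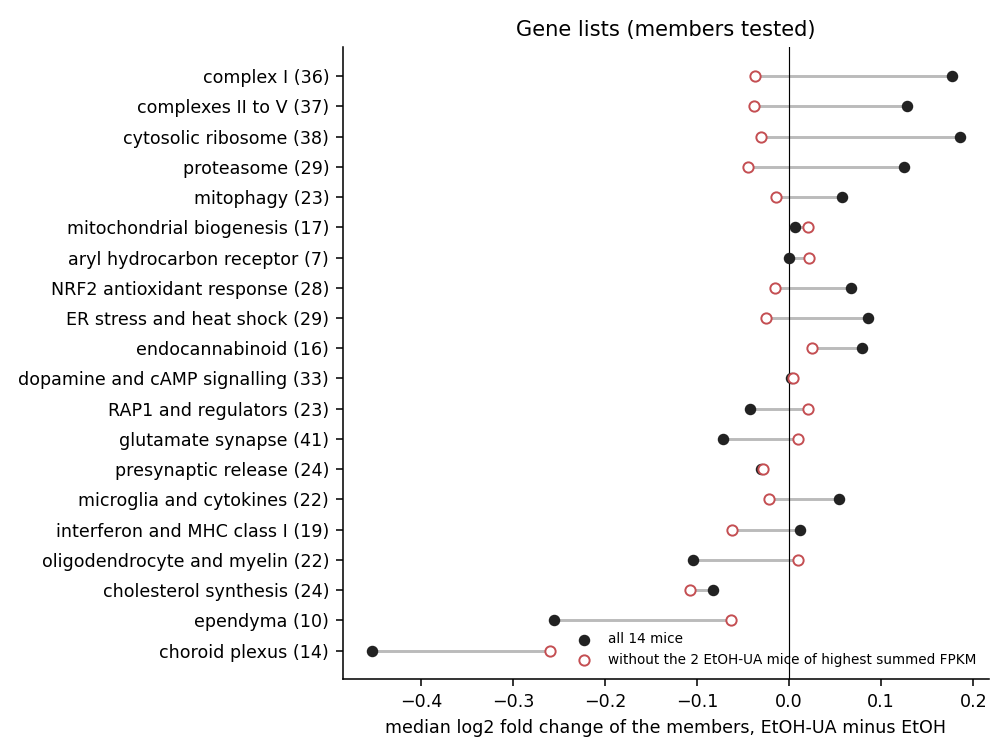
Median log2 fold change (EtOH-UA minus EtOH) of the members of 20 gene lists, with the number of members tested in parentheses, over all 14 mice (filled) and without the 2 EtOH-UA mice with the highest summed FPKM (open). Complex I (0.18 and -0.04), ribosome (0.19 and -0.03) and glutamate synapse genes (-0.07 and 0.01) change sign between the open and filled marks, and cholesterol synthesis (-0.08 and -0.11) does not.

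Genes of the regulators linked to UA held no call either, since none of the genes tested was called. Of 13 aryl hydrocarbon receptor genes 7 passed the filter, 3 of them were higher, and the median log2 fold change was 0.00. Ahr itself was at 1.5 to 2.71 FPKM in EtOH mice (median 2.26) and at 1.62 to 2.61 in EtOH-UA mice (median 2.06), with a log2 fold change of -0.11, or -0.05 without the 2 mice. Arnt2, its neuronal partner, also had a log2 fold change of -0.11, with 1 low EtOH-UA value of 30.33 FPKM, and of -0.01 without the 2 mice. Cyp1a1, the classical target, had a median of 0.04 FPKM in both groups. Of 28 NRF2 genes 22 were higher with a median log2 fold change of 0.07, and 12 were higher without the 2 mice. Hmox1, heme oxygenase 1, had medians of 2.24 and 2.85 FPKM and all 7 EtOH-UA mice above the EtOH median (log2 fold change 0.21, exact permutation p = 0.115, and 0.14 without the 2 mice). Txnrd1, thioredoxin reductase, had a log2 fold change of 0.11 with an exact permutation p of 0.0478, and of 0.06 without the 2 mice. That of Fth1, the ferritin heavy chain, was 0.16, and 0.07 without them.

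Promoters of the leading genes were searched for the binding elements of these regulators. The core GCGTG of the aryl hydrocarbon receptor element and the antioxidant response element TGACNNNGC were looked for on both strands in the 250 bases before each RefSeq start. GCGTG was in 30.9% of 27025 genes with a window, whether tested here or not, and TGACNNNGC in 11.5%. The share among the genes tested was not computed, so these shares are not a like background for the leading genes. Among the 12 leading higher genes 10 had a window, of which 5 held GCGTG and 0 held TGACNNNGC. Among the 12 leading lower genes 8 had a window, of which 2 held GCGTG and 0 held TGACNNNGC. Outside both sets, the window of the second Gdf1 start shown above held 1 TGACNNNGC, which is not in capitals there. The windows of Hpdl and of the upstream Mterf2 start are shown as those of the gene with the smallest p-value and of a gene whose groups did not overlap, with GCGTG in capitals and both genes on the minus strand. A match is a description of the letters and not a binding site.
Hpdl, chr4:116821509-116821758: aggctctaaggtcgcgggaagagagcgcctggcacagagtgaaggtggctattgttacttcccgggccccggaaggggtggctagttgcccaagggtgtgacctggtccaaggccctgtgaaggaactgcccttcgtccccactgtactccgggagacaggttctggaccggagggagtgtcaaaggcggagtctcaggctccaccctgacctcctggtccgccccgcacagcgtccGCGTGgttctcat
Mterf2, chr10:85128028-85128277: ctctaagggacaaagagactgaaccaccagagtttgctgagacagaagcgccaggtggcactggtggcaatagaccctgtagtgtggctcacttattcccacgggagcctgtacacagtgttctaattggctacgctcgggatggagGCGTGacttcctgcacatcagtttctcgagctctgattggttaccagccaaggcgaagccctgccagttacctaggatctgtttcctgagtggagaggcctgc

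Further lists gave single leading genes. Of 29 ER stress and heat shock genes 26 were higher (median log2 fold change 0.09), and 11 without the 2 mice. Chac1, a target of the integrated stress response, was at 1.95 to 2.54 FPKM in EtOH mice (median 2.22) and at 2.18 to 3.19 in EtOH-UA mice (median 2.62), with a log2 fold change of 0.25 (exact permutation p = 0.0198), or 0.15 without the 2 mice. Hspb1, a small heat shock protein, had a log2 fold change of 0.27, against 0.08 for Hspa8, the constitutive chaperone. That of Hspb1 was 0.14 without the 2 mice, and that of Hspa8 was below 0. Among ethanol and acetate metabolism genes 7 of 11 were higher, and 3 of 11 without the 2 mice. Aldh2, the mitochondrial enzyme that clears acetaldehyde, had medians of 29.09 and 31.29 FPKM. Aldh1a1, a retinal dehydrogenase, had medians of 19.99 and 23.74 FPKM (log2 fold change 0.26). Glucocorticoid targets had 12 of 18 higher with and without the 2 mice, with median log2 fold changes of 0.09 and 0.04. Log2 fold changes were 0.21 for the metallothionein Mt1 and 0.46 for the lipid droplet gene Plin4. These were 0.11 and 0.69 without the 2 mice. Immediate early genes, which record neuronal activity, had 17 of 22 higher (median log2 fold change 0.04) and 15 without the 2 mice. For Ier2 the log2 fold change was 0.28. Of 9 neurotrophin genes 4 were higher (median log2 fold change 0.00), and 7 without the 2 mice. The log2 fold change of Ntf3 was 0.25, or 0.14 without 1 of the 2 mice.

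Several of these list medians changed sign with the scaling. Those of the adult neurogenesis and dopamine and cAMP lists were below 0 under upper-quartile scaling and under quantile normalization. Those of the mitochondrial biogenesis and interferon lists were below 0 under upper-quartile scaling, and those of the autophagy and ethanol lists under quantile normalization. Of 14 adult neurogenesis genes 9 were higher, and 5 without the 2 mice. Cd24a, a surface protein of neuroblasts, was at 3.85 to 6.52 FPKM in EtOH mice (median 5.68) and at 2.8 to 6.08 in EtOH-UA mice (median 4.19), with a log2 fold change of -0.38 (exact permutation p = 0.0583). Dcx, doublecortin of immature neurons, had a log2 fold change of -0.34, and of -0.11 without the 2 mice. C1ql2, a secreted protein of dentate granule cells, was at 22.9 to 34.89 FPKM in EtOH mice (median 25.48) and at 25.89 to 62.21 in EtOH-UA mice (median 32.64). All 7 EtOH-UA mice were above the EtOH median of C1ql2, with a log2 fold change of 0.37 (exact permutation p = 0.046), or 0.23 without 1 of the 2 mice. Markers of other cells that a dissection can carry had no gene past the adjusted threshold either, as none of the genes tested passed it. Of 10 ependymal markers 8 were lower, with a median log2 fold change of -0.26, or -0.06 without the 2 mice. The cilia gene Cfap45 was at -0.24 on that scale and Fam183b, one of the 2 higher members, at 0.40, or 0.19 without the 2 mice. All 10 markers of meninges and fibroblasts were higher, with a median log2 fold change of 0.14, and 8 of 10 without the 2 mice, with a median of 0.19. Of 14 endothelial and pericyte markers 10 were higher, with a median log2 fold change of 0.06, or 0.02 without the 2 mice. That of Ly6c1 was 0.23, or 0.12 without the 2 mice. Of 5 blood markers 4 were higher, with a median log2 fold change of 0.39, or 0.16 without the 2 mice. The hemoglobin gene Hbb-bs had a log2 fold change of 0.30, or 0.07 without the 2 mice and 0.02 without 1 of the EtOH mice. The levels of these 4 lists overlapped between the groups, and their part in other differences was not tested.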

How the data were processed

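Hippocampal RNA of 7 EtOH-UA and 7 EtOH mice was sequenced, and 9 control mice were not used here. Per the methods, Bowtie2 (mm10) and RSEM gave the FPKM that the authors deposited, rounded to 2 decimals, with 1 column per mouse and no counts. The methods describe poly(A)+ RNA on BGISEQ, the labels total RNA on MGISEQ. Columns were assigned to groups by name and carry no replicate number. The count test of the methods could not be applied to FPKM. Genes averaging 1 FPKM or more were fitted on log2(FPKM + 0.1) with limma 3.58.1 in R 4.3.3 (2 groups, eBayes with an intensity trend, no covariate), with Benjamini-Hochberg adjustment over all 12928 genes. This scale understates changes of low genes. For single genes the group means on that scale were also compared by exact permutation (two-sided, 3432 assignments). These p-values are unadjusted. Those printed belong to genes chosen by rank or by size of difference, to genes the study named, and to sums of overlapping genes. The fit was tested on simulated data. Both the fit and the permutations took each mouse as independent, whatever its cage.

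Named genes were the 12 with the smallest p in each direction, genes that differed by 1 or more on the log2 scale, genes the study named, and from each list the 3 members with the smallest p and the most abundant one. Some of the genes this rule names are not reported here. The comparison, its members and the 42 hand-written lists (30 of pathways and 12 of markers) were chosen with earlier results of these data known. Lists are described by counts and medians, without a test. Most named members were picked by p, so that all EtOH-UA mice lay above or below an EtOH median is a description. The share of all genes in which this held is not given. Coordinates and promoters come from RefSeq GRCm38.p6, the assembly also called mm10, and lengths from GENCODE release 21 of the mouse.

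Depth was estimated from even steps of the lowest FPKM in 50 genes with 1 transcript, to a tolerance of 0.01 FPKM. The genes were kept where 1 common step fitted all 14 mice, so they cannot show whether the libraries differed in depth. At 1 FPKM a transcript of 1 kilobase had a median of 16.7 fragments (quartiles 15.8 and 17.0). Genes near 1 FPKM thus rest on few fragments. The alternatives were other pseudocounts, filters, scalings, moderation, weights and covariates, 1 model of all 23 mice, each mouse left out, and, added later, the 2 EtOH-UA mice with the highest summed FPKM left out.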

Additional observations from a re-analysis of the deposited data

Results flagged for a closer look

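Of 202 sets of 7 values, for the 101 genes compared in both groups, 15 had 1 mouse farther from the rest than Dixon's 95% criterion allows, where chance gives about 1 in 20 sets (10.1). In 5 of them the mouse was one of the 2 EtOH-UA mice with the highest summed FPKM. These were the highest Fam118b value (13.37 FPKM, next 10.51), the highest Aldh2 value (40.04, next 31.49), and the lowest values of Ppargc1a (6.18, next 8.18), Arnt2 (30.33, next 50.9) and Lcn2 (0.13, next 1.12). The sixth EtOH-UA value was the lowest of Gm2506 (0.36, next 2.35).

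In EtOH mice the lowest value stood apart in Mterf2 (7.71 FPKM, next 8.65), Itgbl1 (3.5, next 4.22), Il18 (11.57, next 14), Ahr (1.5, next 2.11) and Hbb-bs (15.26, next 42.89). H2ac19 and Gm3411 were each listed at 0 in 1 EtOH mouse, beside next values of 1.26 and 0.44. The highest value stood apart in Ndufb9 (205.8, next 153.2) and Rpl3 (526.4, next 419.5).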

How the results depend on the processing

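Under all 28 alternatives 0 genes had an adjusted p under 0.05 by limma (smallest adjusted p 0.511, with array quality weights). No paired analysis was possible because the columns carry no replicate numbers. Genes higher at an unadjusted p under 0.05 numbered 202, against 306 with no filter, 398 with array quality weights and 110 to 444 leaving out 1 mouse. Genes lower numbered 108, against 178 with a filter at 0.1 FPKM, 283 with no filter, 47 with a filter at 5 FPKM, 171 with upper-quartile scaling, 389 with weights, 204 with the complex I level as covariate, 167 without the 2 EtOH-UA mice and 65 to 327 leaving out 1 mouse. Among the counts leaving out 1 mouse the highest, 444 and 327, came without the EtOH mouse with the highest summed FPKM. Genes that differed by 1 or more on the log2 scale numbered 11, against 3 with a pseudocount of 1, 19 with 0.01, 28 with a filter at 0.1 FPKM, 28 with no filter, 3 with a filter at 5 FPKM and 8 to 23 leaving out 1 mouse. Genes with no overlap, 2 higher and 1 lower, became 1 higher with upper-quartile scaling, 0 lower with quantile normalization, 2 lower with a filter at 0.1 FPKM or none, 9 higher and 3 lower without the 2 mice, and 2 to 8 higher and 1 to 10 lower leaving out 1 mouse. Of 1175 recomputed list medians 5 moved by more than the spread between mice: retina, liver and muscle -0.15 with no filter (0.11 for all mice), mitochondrial biogenesis -0.023 with upper-quartile scaling, dopamine and cAMP -0.047 with quantile normalization, and neurotrophins, -0.032 to 0.044 leaving out 1 mouse. The choroid plexus median ran from -0.86 to 0.10. Of 2792 recomputed values of named genes 46 changed sign, in 16 genes, and 2746 kept it. On the log2 scale these were Fxr1 -0.0080 and Snap25 -0.012 with upper-quartile scaling; Fxr1 -0.011, Snap25 -0.073 and Gabarapl1 -0.021 with quantile normalization; Dlg4 0.033, Fxr1 -0.0040, Aif1 -0.043, Sirt3 -0.018, Camk2a 0.034 and Mbp 0.013 with weights; Fxr1 -1.63e-04, Fxr2 -0.015, Grin2b 0.0056, Aif1 -0.076, Sqstm1 -0.0022, Sirt3 -0.016, Ndufb9 -0.015, Atp5b -0.030, Rpl3 -0.0094 and Hspa8 -0.0054 with the complex I covariate; and Dlg4 0.026, Fxr1 -0.015, Fxr2 -0.022, Grin2b 0.052, Aif1 -0.10, Sqstm1 -0.014, Sirt3 -0.042, Ndufb9 -0.047, Atp5b -0.052, Rpl3 -0.035, Hspa8 -0.025, Camk2a 0.020, Snap25 -0.0077 and Gabarapl1 -0.0026 without the 2 mice. Leaving out 1 mouse gave -0.026 to 0.041 for Dlg4, -0.0100 to 0.20 for Aif1, -0.15 to 0.016 for Arnt2, -0.078 to 0.0043 for Camk2a and -0.0070 to 0.038 for Fxr1. The cause of these shifts was not tested. Genes near 1 FPKM rest on few fragments.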
